A study of Mus musculus with 6 samples.

Results

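The 45 genes described here act in G2 and mitosis, and were taken by symbol from the table of read counts per gene: all 45 of the listed symbols were present, among 24982 rows. RNA had been sequenced from natural regulatory T (nTreg) cells, sorted as CD4+CD25+CD127lo cells from the spleens of B6.129 mice aged 8 to 10 weeks. A further label field calls the same samples Th0 effector CD4 T cells. One group was wild type (WT), with 3 mice. The other, here called KO, also had 3 mice and carried Srsf1-flox/flox with dLck.Cre, a Cre recombinase under the distal Lck promoter, which acts in T cells after the early thymic stages; Srsf1 encodes a splicing factor. Cells of both groups had been cultured for 72 h with anti-CD3 (2 μg/ml), anti-CD28 (2 μg/ml) and rIL-2 (10 ng/ml), a stimulus that drives T cells into division. The labels do not say whether the WT mice carried Cre or a floxed allele. The comparison asks whether the genes of cell division differed between stimulated nTreg cells of the 2 genotypes.

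A cell leaves G2 when cyclin B and the kinase CDK1 become active, after which the chromosomes condense, attach to the spindle through kinetochores and are held by the spindle checkpoint until all are attached. The anaphase-promoting complex, a ubiquitin ligase switched on by CDC20, then marks securin and cyclin B for destruction, and the central spindle and a contractile ring divide the cell. Transcripts of these genes build up in G2, so that their level in a bulk T cell culture is commonly used to follow proliferation. A bulk measurement cannot tell fewer dividing cells from less RNA of these genes in each dividing cell.

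Total gene counts were 23263741, 25908166 and 27562046 in WT replicates 1, 2 and 3 and 20373649, 13241964 and 10183626 in KO replicates 1, 2 and 3, so each KO library was shallower than each WT library. Levels are given as CPM, counts per 1000000 counts of a library, with library totals adjusted by TMM normalisation. Every member was well above the level of 3 counts (0.109 to 0.295 CPM by library): the lowest value of any member was 1.46 CPM. Srsf1 itself was at 1214, 1230.4 and 755 CPM in the WT libraries and 438, 812 and 787 CPM in the KO libraries (edgeR adjusted p = 0.682, exact two-sided permutation p = 0.3, the smallest possible being 0.1). The library labelled WT replicate 3 thus lay below KO replicates 2 and 3, and all directions below follow the labels. The 7 regulatory T cell markers summed to 5368 to 8452 CPM in WT and 5158 to 8874 CPM in KO. Among them Foxp3 was at 104 to 159.6 CPM in WT and 357 to 464 CPM in KO, without overlap. Il2ra, at 3300.3 to 6879.6 CPM over all libraries, made up most of each sum. Ikzf2 was also higher in each KO library, at 85.6 to 155 CPM in WT and 170 to 305 CPM in KO. So were Ikzf4 (56.3 to 70.6 and 86.3 to 106 CPM) and Cd4 (238 to 316 and 425 to 503 CPM). For Il2ra, Ctla4 and Tnfrsf18 the groups overlapped. The 4 CD8 T cell markers summed to 232 to 313 CPM in WT and 86.4 to 103 CPM in KO. Cd8a was at 118 to 176 CPM in WT and 26.6 to 47.0 CPM in KO and Cd8b1 at 75.3 to 93.3 and 12.3 to 14.1 CPM, while Eomes, also in this list, was at 12.3 to 19.7 and 19.6 to 37.0 CPM. Summed markers of macrophages and monocytes (8 genes) were at 1.49 to 4.31 CPM in WT and 5.28 to 9.14 CPM in KO, and those of NK cells (5 genes, mostly Eomes) at 13.2 to 20.0 and 21.2 to 39.2 CPM, both without overlap. Of the genes that define B cells and macrophages, Ms4a1, Cd79a, Adgre1, Itgam and Cd14 had at most 4 counts in any library, and Csf1r and Lyz2 were at 0, whereas Cd79b reached 115 counts and Cd68 178 counts. Cd68 was at 1.40 to 3.98 CPM in WT and 4.83 to 8.14 CPM in KO. The part of other cell types and of the levels of Foxp3, Ikzf2, Ikzf4 and Cd4 in the values below was not tested.

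The promoters of many members share the letters CCAAT, bound by the factor NF-Y, and TTTGAA, a form of the cell cycle homology region (CHR) through which the DREAM and MuvB complexes time expression to G2. RefSeq windows from 250 bases before to 50 bases after the start (build GRCm38.p6, while the counts were made on mm9) matched 38 of the 45 members. Both strands were searched, so ATTGG and TTCAAA count as matches; a CCAAT and a TTTGAA match shared a base in 1 member, CDCA8. CCAAT was present in 29 of these 38 windows (76.3%), against 37.9% of 27025 windows of all genes and 39.3% of the windows of 9339 tested genes. TTTGAA was also present in 29 windows (76.3%), against 18.1% and 11.9%. Both were present in 25 (65.8%), against 7.12% and 5.12%, and 5 windows held neither, those of BIRC5, MAD2L1, PTTG1, NUF2 and NUSAP1. The other CHR form searched, TTTAAA, was in 10 windows (26.3%, against 13.2% and 9.04%), and of the E2F sites TTTGGCGC was in 1 (2.63%, against 0.537% and 1.08%) and TTTCCCGC in 0 (against 1.11% and 2.26%). A match of letters describes the window and shows no binding. Below are 6 promoters from 100 bases before to 30 bases after the start, 5′ to 3′ on the strand of the gene, with both motifs, on either strand, in capitals. They are shown because all 6 hold both motifs while the genes differed in how they stood in KO replicate 1: as log2 differences from the WT mean, KIF11, HMMR and DEPDC1A stood at -1.34, -1.64 and -3.25 there, and CDC20, UBE2C and CCNB2 at 1.22, 0.76 and 0.17. KIF11 lies at chr19:37376282-37376411 (+), HMMR at chr11:40733408-40733537 (-), DEPDC1A at chr3:159495333-159495462 (+), CDC20 at chr4:118437314-118437443 (-), UBE2C at chr2:164769829-164769958 (+) and CCNB2 at chr9:70421525-70421654 (-).
KIF11: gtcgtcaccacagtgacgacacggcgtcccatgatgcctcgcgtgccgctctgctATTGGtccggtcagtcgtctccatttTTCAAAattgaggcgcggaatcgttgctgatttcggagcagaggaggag
HMMR: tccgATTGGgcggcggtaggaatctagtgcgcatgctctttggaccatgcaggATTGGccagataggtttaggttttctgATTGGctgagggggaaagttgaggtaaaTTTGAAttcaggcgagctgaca
DEPDC1A: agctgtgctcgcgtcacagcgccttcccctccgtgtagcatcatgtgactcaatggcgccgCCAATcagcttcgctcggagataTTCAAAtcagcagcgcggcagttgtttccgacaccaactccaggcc
CDC20: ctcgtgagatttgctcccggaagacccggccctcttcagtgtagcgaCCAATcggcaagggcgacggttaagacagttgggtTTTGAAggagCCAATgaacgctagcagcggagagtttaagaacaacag
UBE2C: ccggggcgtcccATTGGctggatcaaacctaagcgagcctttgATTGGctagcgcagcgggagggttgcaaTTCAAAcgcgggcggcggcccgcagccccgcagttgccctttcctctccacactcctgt
CCNB2: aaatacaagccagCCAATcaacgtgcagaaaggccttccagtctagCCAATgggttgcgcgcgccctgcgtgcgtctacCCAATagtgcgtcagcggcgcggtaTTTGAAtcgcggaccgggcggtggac

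No member was called different between the genotypes. With edgeR's quasi-likelihood test over 11772 genes and an adjusted p under 0.05, 0 of the 45 members passed in either direction, where 0.0170% of all tested genes passed (2 genes), and 0 members had an unadjusted p under 0.05, against 4.75% of tested genes on the higher and 2.76% on the lower side. The DESeq2 Wald test called 1.10% of tested genes and 0 members, and limma voom called 0 members. The members' adjusted p ran from 0.693 to 0.997 in edgeR. Fold changes (KO against WT, log2 scale) lay on both sides of 0, with 23 members above and 22 below and a median of 0.0024, next to 0.019 for all tested genes. They ran from -0.54 for BUB1 to +0.52 for MKI67. The standard error had a median of 0.28 over the members. For 29 members the 95% interval of the difference stayed within a doubling and a halving, that is between -1 and 1 on the log2 scale, and for the other 16 it did not, so that a 2-fold difference lay inside the interval of those genes.

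Member levels varied more among the KO libraries than among the WT libraries, and KO replicate 1 stood furthest from the WT mean. The coefficient of variation of CPM had a median over the members of 10.5% among the WT libraries and 31.1% among the KO libraries. It was larger in KO for 36 of 45 members. This measure is not given here without KO replicate 1 or over all tested genes, so it describes neither the genotype nor these genes in particular. Relative to each gene's WT mean on the log2 scale, the median member stood at 0.07, -0.0048 and -0.07 in WT replicate 1, WT replicate 2 and the library labelled WT replicate 3, and at -0.52, 0.05 and 0.26 in KO replicates 1, 2 and 3. In KO replicate 1, 30 members were below the WT mean, 14 of them by more than 1 log2 unit, and 15 were above it. KO replicate 3 had the opposite balance, with 37 members above and 8 below, and KO replicate 2 had 26 above and 19 below. KO replicate 1 was the lowest of the 6 libraries for 26 members and the highest for 8, while KO replicate 3 was the highest for 24; over all tested genes KO replicate 1 was lowest for 34.8% and highest for 36.6%, and KO replicate 3 was highest for 12.2%. Each WT library is part of the WT mean it is set against, which by itself narrows the WT values in this measure. The plot of member levels by library shows the spread.

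**Figure D1:**
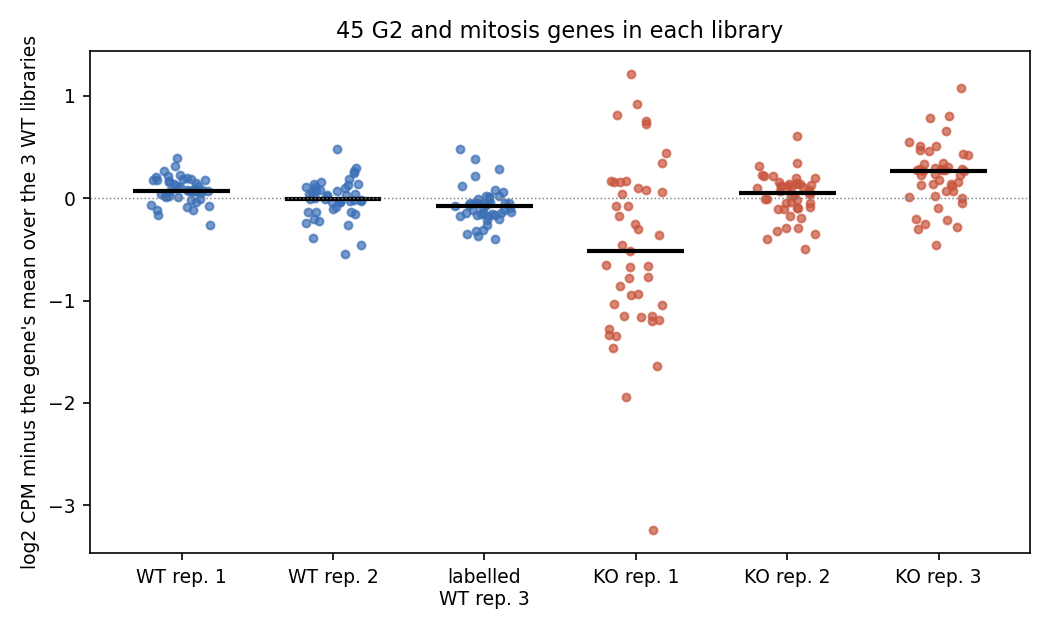
Log2 CPM of each of the 45 genes minus that gene's mean over the 3 WT libraries (y axis), by library (x axis); each point is a gene and the bar is the median. KO replicate 1 has its median at -0.52 and points from -3.25 to 1.22, while the 3 WT libraries have points from -0.54 to 0.49. The WT points are set against a mean that includes them, which narrows their range.

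The order of the members within KO replicate 1 followed the base composition of their transcripts. Across the 45 members, the log2 difference of KO replicate 1 from the WT mean had r = 0.89 with the GC content of the longest coding transcript, as a description over genes that share libraries. Without DEPDC1A, which had the lowest GC content and the lowest value, it was 0.88 over 44 genes. In KO replicates 2 and 3 the same measure gave r = -0.06 and -0.13, and in WT replicates 1, 2 and 3 -0.39, 0.37 and -0.12. The relation was not particular to genes of mitosis: over 11674 tested genes r was 0.78 in KO replicate 1, -0.11 in KO replicate 2 and -0.09 in KO replicate 3. In WT replicates 1, 2 and 3 it was -0.34, 0.04 and 0.17 over these genes. The 15 members of lowest GC content (35.3% to 43.4%), among them DEPDC1A, BUB1, HMMR, KIF11 and TOP2A, had a median of -1.20 in KO replicate 1, and 1 of them, BUB3, was above the WT mean. The 15 of highest GC content (48.1% to 56.0%), among them PLK1, CDC20, UBE2C, FOXM1 and CDC25B, had a median of 0.17, with 12 above. KO replicate 1 also had the highest mismatch rate in the alignment report, 0.52% per base against 0.32% to 0.43% in the others. What set the composition of this library apart was not tested. The 25 promoters with both CCAAT and TTTGAA belonged to genes at -3.25 to 1.22 in KO replicate 1, and the 13 without both to genes at -1.94 to 0.92, with medians of -0.30 and -1.03. Transcript length followed another course: its log2 had r = 0.58 and 0.65 with the members' differences in KO replicates 2 and 3, against -0.30 in KO replicate 1 and -0.57 to 0.42 in the WT libraries. Over the 11674 genes it was 0.13, 0.08 and -0.16 in KO replicates 2, 3 and 1.

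**Figure D2:**
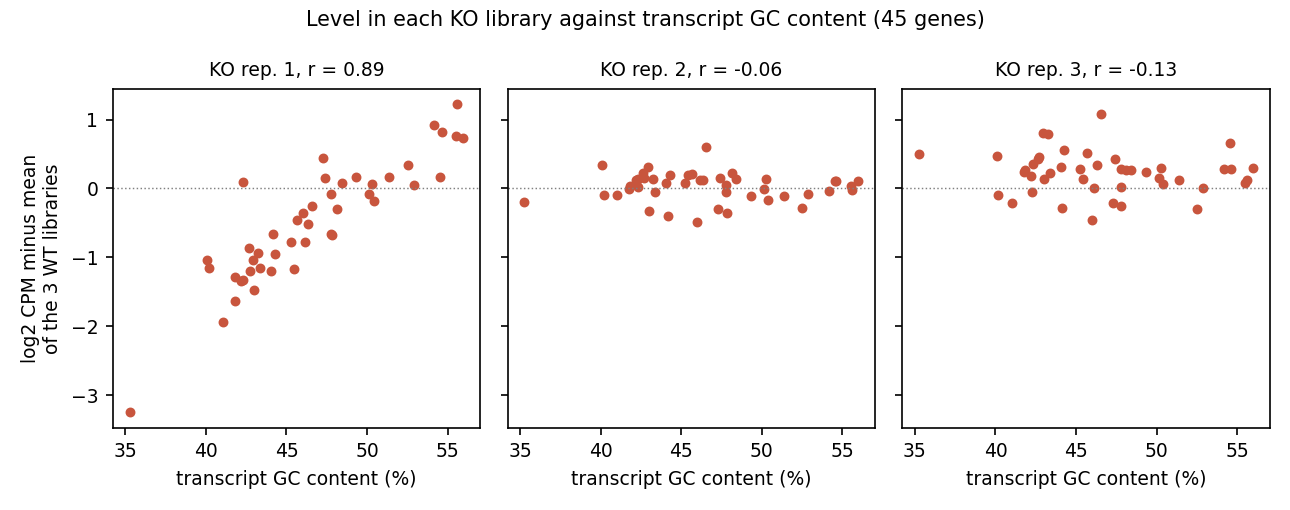
Log2 CPM of each of the 45 genes in a KO library minus its mean over the WT libraries (y axis), against the GC content of its longest coding transcript in percent (x axis), with 1 panel for each KO library. The points rise with GC content in KO replicate 1 (r = 0.89) and show no such slope in KO replicates 2 (r = -0.06) and 3 (r = -0.13).

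Without KO replicate 1 no member was called either, but most fold changes were higher. Then 33 of 45 members were above 0 and 12 below, with a median of 0.15 (all tested genes -0.03), and 14 members changed sign. The median standard error was 0.17, and 42 members had a 95% interval between -1 and 1. At an unadjusted p under 0.05, 4 members were higher (5.17% of tested genes) and 1 was lower (5.25%), and the smallest adjusted p was 0.433. The 4 were MKI67, CENPE, ASPM and PRC1 and the 1 was PTTG1. The library left out, KO replicate 1, had the lowest Srsf1 of all, at 438 CPM. KO replicates 2 and 3, which remain, were at 812 and 787 CPM, above the library labelled WT replicate 3 (755 CPM). This limit holds for every value given below without KO replicate 1. With all genes corrected for GC content and length, an alternative added after the data were seen, the members' median was 0.06, with 16 below 0 and 0 called. Several fold changes given below were then nearer 0: FOXM1 stood at +0.16, PLK1 at +0.17, CDC20 at +0.23, CCNB1 at -0.22 and ECT2 at -0.07. BUB1 stood at -0.36 and CDC25C at -0.34, while MKI67 was at +0.57, further from 0 than without the correction. When only KO replicate 3 was omitted, 30 members were below 0 and the median was -0.22. When only the library labelled WT replicate 3 was omitted, 30 members were below 0 and the median was -0.06. When both that library and KO replicate 1 were omitted, which leaves 2 against 2 and was added after the data were seen, 15 were below 0, the median was 0.12 and 0 members were called. The mean of the members relative to the 6-library mean was -0.46 in KO replicate 1 before that correction and -0.15 after it, and 0.27 and 0.19 in KO replicate 3.

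**Figure D3:**
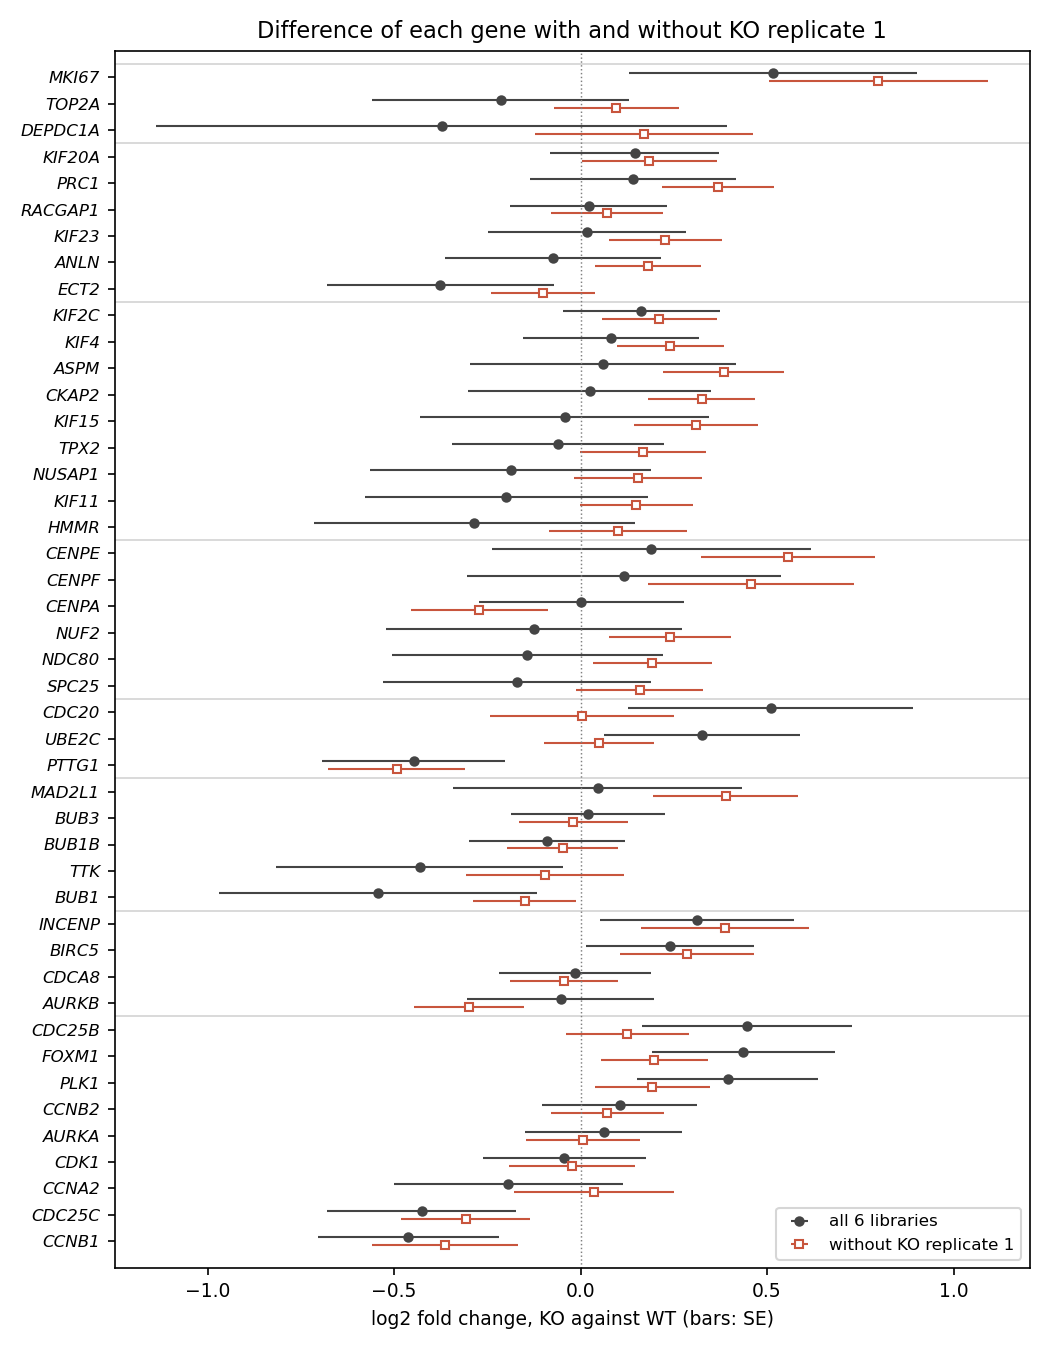
Log2 fold change in KO against WT from edgeR (x axis) with its standard error (bars) for each of the 45 genes (y axis, grouped by role), from all 6 libraries (filled circles) and without KO replicate 1 (open squares). Without that library the bars are shorter for most genes, and 33 of the squares lie above 0.

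In what follows, 3 values in a row stand for replicates 1, 2 and 3, WT first and KO second. Cyclins, CDK1 and the factors of mitotic entry showed no common direction, with 5 of 9 above 0 and 4 below. CCNB1, cyclin B1, the partner of CDK1 in mitosis, was at 138, 168 and 109.7 CPM across WT and 86.3, 104 and 112 CPM across KO. KO replicate 3 lay above the library labelled WT replicate 3, so the groups overlapped (log2 fold change -0.46, SE 0.24, edgeR adjusted p = 0.693), and the value was -0.36 without KO replicate 1. Cyclin B2 (CCNB2) was at 90.1, 93.4 and 88.0 CPM against 102, 83.8 and 107 CPM, a range that KO replicate 2 opened on the low side and KO replicate 3 on the high side. CDK1 itself was at 169, 214 and 161 CPM across WT and 171, 174 and 184 CPM across KO, and all KO values lay inside the WT range (-0.043, SE 0.22). CCNA2, cyclin A2, which acts in S phase and G2, was at 510.4, 504 and 334 CPM and 256, 479 and 444 CPM. Its lowest values were in the library labelled WT replicate 3 and in KO replicate 1. The phosphatase gene CDC25C, whose product activates CDK1, was lower in each KO library than in each WT library, with 24.9, 23.9 and 25.1 CPM against 15.2, 19.2 and 20.7 CPM (-0.43, SE 0.25, edgeR adjusted p = 0.720). FOXM1, a transcription factor that drives genes of G2, was higher in each KO library, at 61.8, 67.3 and 61.6 CPM against 112, 68.7 and 77.3 CPM (+0.44, SE 0.25, edgeR adjusted p = 0.713), and stood at +0.20 without KO replicate 1. In FPKM, a level per transcript length, its groups did overlap (10.8, 12.6 and 11.7 in WT, 23.1, 12.5 and 13.6 in KO). Over all members the groups did not overlap in 1 of 45 with KO above (7.48% of tested genes) and in 3 of 45 with KO below (8.18%), namely CDC25C, BUB1 and PTTG1. CDC25B (51.4, 57.1 and 59.1 and 106, 54.3 and 67.8 CPM) and the kinase PLK1 (137, 133 and 112 and 211, 136 and 156 CPM) were highest in KO replicate 1, as FOXM1 was. AURKA, the kinase of spindle poles, stood at +0.062 (SE 0.21).

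The chromosomal passenger complex, which corrects wrong attachments of chromosomes, was measured in full. Its kinase AURKB was at 97.0, 112 and 119 CPM across WT and 138, 89.2 and 88.5 CPM across KO, with KO replicate 1 as the highest of all libraries and KO replicates 2 and 3 as the lowest. Without KO replicate 1 its log2 fold change went from -0.054 to -0.30 (SE 0.15). The scaffold INCENP was at 286, 198 and 215 CPM and 258, 248 and 363 CPM, and BIRC5, survivin, at 139.8, 129.6 and 103 CPM and 137, 136 and 166 CPM. Both genes were highest in KO replicate 3, and their groups overlapped. CDCA8, borealin, was at 131, 122 and 109 CPM and 124, 113 and 120.3 CPM, and its KO values lay inside the WT range (-0.015, SE 0.20). Fold changes of the 4 subunits, whose products act as 1 complex, thus ran from -0.054 to +0.31.

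Among the 5 spindle checkpoint genes, BUB1 carried the lowest fold change of all members in this fit. With limma voom and with the replicate number as a block DEPDC1A was lower (-1.30 and -0.85, against -0.76 and -0.73). DEPDC1A was also lowest without KO replicate 3 (-1.11 against -0.75) and with log2(FPKM + 0.1) (-0.706 against -0.704). PTTG1 was lowest without KO replicate 1 (-0.49 against -0.15) and with 2 against 2 libraries (-0.50 against -0.15). CCNB1 was lowest without the library labelled WT replicate 3 (-0.61 against -0.56). The kinase BUB1 was at 179, 165 and 164 CPM across WT and 43.7, 159 and 147 CPM across KO. The groups did not overlap, yet KO replicates 2 and 3 were close to the WT values and KO replicate 1 was far below them (-0.54, SE 0.43, edgeR adjusted p = 0.754). Without KO replicate 1 BUB1 stood at -0.15 (SE 0.14). TTK, the kinase that starts the checkpoint signal, was at 80.4, 68.0 and 99.3 CPM and 29.2, 65.0 and 89.7 CPM, and it went from -0.43 to -0.096 without that library. BUB1B, an inhibitor of CDC20, was at 215, 205 and 194 CPM and 181, 181 and 215 CPM, with overlap. BUB3, its binding partner, had log2 fold changes of +0.02 with and -0.019 without KO replicate 1. After the GC and length correction BUB3 stood at +0.41, and at +0.31 with the replicate block added. MAD2L1, which also holds CDC20 in check, was at 224, 211 and 151 CPM and 93.1, 244 and 267 CPM. Its KO replicates 2 and 3 were above all WT libraries and KO replicate 1 below all of them.

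The 3 genes of anaphase did not share a direction. CDC20 was at 86.9, 132 and 72.7 CPM across WT and 219.7, 93.0 and 102 CPM across KO, with a fold change of +0.51 (SE 0.38). Only KO replicate 1 was above the WT range, and without it the fold change was +0.0039 (SE 0.25). UBE2C, the ubiquitin-conjugating enzyme of the anaphase-promoting complex, had the same shape, with 132, 143 and 116 CPM against 220.2, 133 and 137 CPM, and +0.049 without KO replicate 1. PTTG1, securin, which holds separase inactive until anaphase, was lower in each KO library than in each WT library, at 21.8, 24.7 and 22.1 CPM against 17.7, 16.1 and 16.4 CPM. Its 3 KO values were close to each other (mean ± SD 22.9 ± 1.58 in WT and 16.8 ± 0.874 in KO, n = 3 each). Its log2 fold change was -0.45 (SE 0.25, edgeR adjusted p = 0.708), and with 1 library left out in turn it ran from -0.49 to -0.39. After the GC and length correction it was -0.25. On the FPKM scale the gap between the groups was narrow, with the lowest WT library at 26.08 and the highest KO library at 26.04. Without KO replicate 1 its 95% interval ran from -0.92 to -0.068, with an edgeR adjusted p of 0.435.

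Genes of the centromere and kinetochore lay on both sides of 0, with 3 of 6 above. CENPE, a kinesin that moves chromosomes to the spindle equator, was at 312, 213 and 324 CPM across WT and 136, 346 and 487 CPM across KO. KO replicate 1 held the lowest and KO replicate 3 the highest value, and the log2 fold change went from +0.19 (SE 0.43) to +0.56 (SE 0.23, edgeR adjusted p = 0.471) without KO replicate 1. It turned to -0.24 without KO replicate 3, and was +0.30 and +0.018 without the library labelled WT replicate 3 and WT replicate 2. CENPF, a large kinetochore protein, had the same order among KO libraries, with 209.7, 145 and 261 CPM and 104, 220.3 and 344 CPM. NDC80 and NUF2 form 1 arm of the NDC80 complex that grips microtubules, and SPC25 belongs to the other. NDC80 was at 113, 97.3 and 89.9 CPM and 43.4, 105 and 124 CPM, and SPC25 at 75.5, 63.8 and 55.5 CPM and 28.5, 73.9 and 71.2 CPM. NUF2 followed with 132, 113 and 102 CPM and 45.3, 127 and 147 CPM. In all 3, KO replicate 1 was below every WT library. The fold changes without it were +0.19 for NDC80, +0.16 for SPC25 and +0.24 for NUF2. CENPA, the histone H3 variant of centromeres, differed from them: it was highest in KO replicate 1 (62.0, 89.5 and 74.0 CPM and 101, 60.7 and 64.1 CPM).

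Among spindle motors and microtubule proteins, 4 of 9 were above 0 with all libraries. Without KO replicate 1 all 9 were above 0, and without KO replicate 3 only KIF2C was. KIF11, the kinesin that pushes spindle poles apart, was at 481, 434 and 415 CPM across WT and 174, 482 and 502 CPM across KO. HMMR, which helps to assemble the spindle, was at 350.1, 261 and 268 CPM and 93.0, 288 and 341 CPM. For both genes KO replicate 1 had less than all other libraries, and the fold changes went from -0.20 to +0.15 and from -0.28 to +0.10 without it. KIF2C, a kinesin that takes microtubules apart and has a higher GC content, did not show the drop: it was at 96.6, 97.7 and 79.0 CPM and 94.9, 99.6 and 111 CPM. ASPM, a protein of spindle poles, was at 165, 142 and 163 CPM and 81.1, 180.0 and 229.6 CPM. It was higher in KO replicates 2 and 3 than in any WT library (+0.38 without KO replicate 1, SE 0.16, edgeR adjusted p = 0.471), and its fold change was -0.27 without KO replicate 3. KO replicates 2 and 3 were both above all WT libraries in 11 of 45 members (13.4% of tested genes) and both below in 4 (16.4%). The 11 were FOXM1, MAD2L1, CENPE, KIF11, KIF2C, KIF4, ASPM, CKAP2, PRC1, ANLN and MKI67, and the 4 were CDC25C, AURKB, BUB1 and PTTG1. KIF15, TPX2, which activates AURKA, and NUSAP1, a microtubule bundler, ran from -0.19 to -0.042 with and from +0.15 to +0.31 without KO replicate 1.

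Fold changes of the 6 genes of the central spindle and of cytokinesis ran from -0.38 to +0.15. ECT2, the exchange factor that activates RhoA at the cell equator, was at 163, 158 and 143 CPM across WT and 69.3, 144 and 144 CPM across KO, with KO replicate 1 far below the rest (-0.38, SE 0.30, and -0.10 without it). Its activator RACGAP1 stood at +0.022 (SE 0.21), and KIF23, which joins RACGAP1 in the centralspindlin complex, at +0.017 (SE 0.26). KIF20A, a kinesin that brings the passenger complex to the central spindle, was at 177, 178 and 129 CPM and 168, 175 and 192 CPM. PRC1, which bundles the microtubules of the central spindle, was at 184, 173 and 169.6 CPM and 127, 204 and 250.1 CPM. Its KO replicates 2 and 3 exceeded each WT library and KO replicate 1 was below each (+0.37 without KO replicate 1, SE 0.15, edgeR adjusted p = 0.465). Without KO replicate 3 PRC1 stood at -0.097. ANLN, anillin of the contractile ring, went from -0.074 to +0.18.

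The remaining 3 members were MKI67, TOP2A and DEPDC1A. MKI67 encodes Ki-67, the coat protein of mitotic chromosomes that is stained as a proliferation marker. It had the largest positive fold change of the members in this fit. CDC20 was above it with upper quartile scaling (0.57 against 0.54) and with library totals alone (0.59 against 0.54). The same held after thinning to equal depth (0.529 against 0.522) and without WT replicate 2 (0.79 against 0.28). CDC20 also led without KO replicate 2 (0.73 against 0.50) and without KO replicate 3 (0.65 against 0.17). MKI67 was at 1266, 836 and 1704 CPM across WT and 1024, 1852 and 2564 CPM across KO. The library labelled WT replicate 3 lay above KO replicate 1 and close to KO replicate 2 for MKI67 (+0.52, SE 0.39, edgeR adjusted p = 0.754). Without KO replicate 1 it stood at +0.80 (SE 0.29, edgeR adjusted p = 0.433, 95% interval +0.12 to +1.48). Leaving out KO replicate 3 gave +0.17, leaving out WT replicate 2 gave +0.28 and leaving out the library labelled WT replicate 3 gave +0.79. TOP2A, the topoisomerase that untangles sister chromatids, was at 1878, 1691 and 1810.1 CPM and 805, 1735 and 2099 CPM, which put KO replicate 1 below all others and KO replicate 3 above all others. DEPDC1A held the lowest value of any member in any library, with 23.9, 15.3 and 16.3 CPM and 1.46, 15.8 and 26.0 CPM. Its value in KO replicate 1 came from 32 counts and stood at -3.25 against the WT mean on the log2 scale, the largest departure of any member, while KO replicate 3 was the highest library.

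On a scale per transcript length, the authors' FPKM, the members' WT means ran from 8.87 for ANLN to 253 for TOP2A, with a median of 42.3. TOP2A was at 253, 239.9 and 265 FPKM in the WT libraries and 130.5, 240.3 and 288 FPKM in the KO libraries. UBE2C (129 ± 13.5, mean ± SD, n = 3), BIRC5 (120.5 ± 17.3), CCNA2 (102 ± 20.1) and CCNB1 (101 ± 20.1) followed in WT. TOP2A was above UBE2C beyond their spread, whereas UBE2C, BIRC5, CCNA2 and CCNB1 each did not differ beyond it from the gene next below. In the KO libraries the FPKM of UBE2C ran from 128 to 247 and that of TOP2A from 130.5 to 288, so that in KO replicate 1 UBE2C was above TOP2A. CDC25C and ANLN were the lowest in WT, at 9.67 ± 0.420 and 8.87 ± 0.307.

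**Figure D4:**
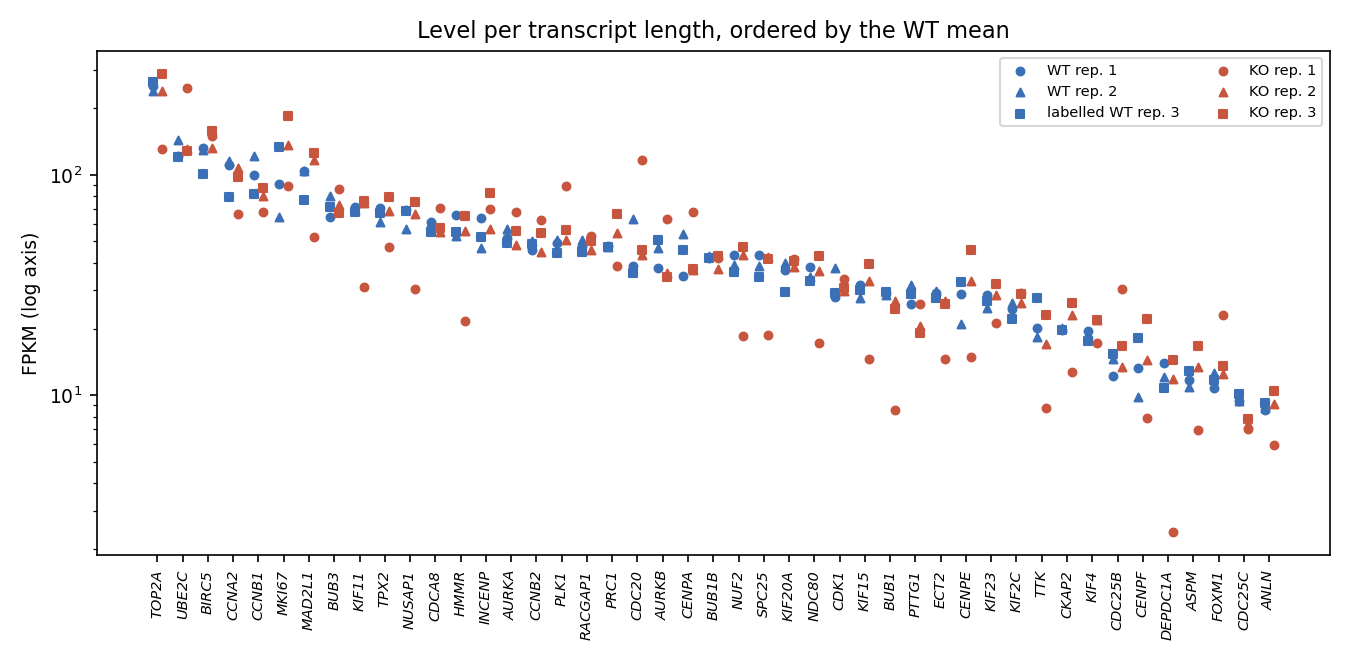
FPKM of each of the 45 genes (y axis, log scale) in each of the 6 libraries, with genes ordered along the x axis by their WT mean; blue marks are WT, red marks KO, and the mark's shape gives the replicate. TOP2A leads in WT, and KO replicate 1 (red circles) departs in both directions, as for BUB1, DEPDC1A, UBE2C and CDC20.

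Other genes of the same pathways, in lists that hold no member, gave 0 calls in either direction in each of 7 lists and in a list of DNA replication genes. At an unadjusted p under 0.05 in edgeR, 4.75% of all tested genes were higher and 2.76% lower. The lists of condensin and cohesin, other kinetochore, G2 control and DNA replication genes held 0 genes under that level. The condensin and cohesin list (22 tested) had a median log2 fold change of -0.14 with 15 genes below 0, and 0.08 with 8 below without KO replicate 1; relative to the 6-library mean, its genes averaged -0.73 in KO replicate 1 and 0.28 in KO replicate 3. NCAPG, a condensin subunit, was at 277, 239 and 275 CPM across WT and 58.9, 213 and 242 CPM across KO. NCAPH2, of condensin II, went the other way in KO replicate 1, with 110.3, 127 and 133 CPM and 233, 121 and 119.6 CPM. Their fold changes were -0.62 and +0.35, and -0.21 and -0.04 without that library. Other kinetochore genes (31 tested) had a median of -0.12, and 0.09 without KO replicate 1, with MAD1L1 at +0.73 and CENPM at +1.02. For both of these the highest library was KO replicate 1, and without it they stood at +0.34 and +0.10.

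Subunits and regulators of the anaphase-promoting complex (18 tested) had a median of 0.05, with 1 gene at an unadjusted p under 0.05: CDC16, a core subunit, was lower in each KO library, at 94.7, 98.3 and 93.3 CPM against 47.4, 64.6 and 70.4 CPM (-0.65, SE 0.23, edgeR adjusted p = 0.603), and stood at -0.50 without KO replicate 1. FZR1, which takes over from CDC20 late in mitosis, was at +0.87 with and -0.01 without that library. Other spindle genes (20 tested) had a median of 0.11 and 2 genes at an unadjusted p under 0.05, NUMA1 at +0.74 and FAM83D at +0.80, and genes of the centrosome and cytokinesis (19 tested, of 20 listed) one of -0.06 and likewise 2 genes, the non-muscle myosin MYH9 at +0.94 (SE 0.27, edgeR adjusted p = 0.480) and NEDD1 at -0.56. NUMA1 stood at +0.44, FAM83D at +0.55, MYH9 at +0.65 and NEDD1 at -0.38 without KO replicate 1. MYH9 was at 655, 715 and 739 CPM across WT and 1851, 1094 and 1113 CPM across KO, without overlap. Among transcription regulators (21 tested, median 0.03, with 1 such gene), E2F7, a repressor of cell cycle genes, was higher in each KO library, at 19.4, 22.0 and 15.9 CPM against 30.5, 32.4 and 32.5 CPM (+0.73, SE 0.25, edgeR adjusted p = 0.573). Its 3 KO values were close to each other, and it stood at +0.76 without KO replicate 1. NFYB, a subunit of the CCAAT-binding factor, was at -0.60 (SE 0.29), and at -0.39 without KO replicate 1. In the list of G2 control (23 tested, median -0.05), SFN, an adaptor of the 14-3-3 family, was at 5.02, 8.59 and 6.46 CPM across WT and 22.6, 9.81 and 7.52 CPM across KO, and GTSE1 stood at +0.64. Both were highest in KO replicate 1, and GTSE1 stood at +0.25 without it. DNA replication genes (32 tested) had a median of 0.02, and 0.04 without KO replicate 1, with RFC4 at -0.47 and MCM5 at +0.45. These were -0.24 and +0.056 without KO replicate 1. Relative to the 6-library mean the DNA replication genes averaged -0.05 in KO replicate 1, where the G2 and mitosis genes averaged -0.46. The other pathway lists ran from -0.73 (condensin and cohesin) to 0.01 (G2 control) there. The anaphase-promoting complex list (-0.02) and the transcription regulators (-0.08) were also near 0. Groups of members ran from -1.41 (MKI67, TOP2A and DEPDC1A) to 0.49 (anaphase). These list means are those before the GC and length correction. After it the mean of the 45 members in KO replicate 1 was -0.15, and corrected means of the other lists are not given here. The differences between lists were not tested.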

How the data were processed

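The members and all gene lists were chosen with earlier results of these data known. The deposited table of gene counts holds whole numbers per gene, made by the authors with the STAR aligner (2.4.2a, per the file headers) through VIPER, as the design text states, on mm9 (per the submitters' processing notes). The authors' deposited FPKM table gives levels per transcript length and library size, and the authors' deposited alignment report gives the mismatch rate as a percent. Neither the counting tool nor its gene models or use of strand is named in the labels, so overlapping genes may share reads even though the kit marks strand.

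From the counts, differences were fitted in R 4.3.3 by edgeR 4.0.16 (TMM, filterByExpr with a minimum count of 10, quasi-likelihood test, Benjamini-Hochberg adjustment over 11772 genes, threshold 0.05), with the 3 WT and 3 KO libraries and no covariate. DESeq2 1.42.0, limma 3.58.1, other scalings, filters, FPKM with pseudocounts of 1 and 0.1, a replicate block and leaving out each library were alternatives. Total counts ran from 10183626 to 27562046. Scripts were tested on simulated data. GC content and length came from the longest coding transcript in GENCODE (GRCm38) and serve only as gene properties. In role groups of at most 4 members all were named; otherwise the 3 with the smallest edgeR p and any without overlap, with others chosen after their values were seen; in pathway lists the 2 with the smallest p were named.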

Additional observations from a re-analysis of the deposited data

How the results depend on the processing

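No member and no gene of the pathway lists was called under any alternative run, including the 4 added after seeing the data (2 against 2 libraries, a correction for GC content and length, that correction with a replicate block, and thinning to equal depth). With 1 library left out in turn, the number of members below 0 (22 with all libraries) ran from 12 without KO replicate 1 to 30 (without WT replicate 3 as labelled, and without KO replicate 3), and the members' median (0.0024) from -0.22 without KO replicate 3 to 0.15 without KO replicate 1. With the replicate block, 0 members were called, 27 were below 0 and the median was -0.06. To look for pairing, each gene's group mean was subtracted from its log2 CPM. What remained had correlations over all tested genes of -0.40, 0.12 and 0.13 between same-numbered WT and KO libraries. The numbers were thus not shown to pair them. Genes called over the whole table (2) numbered 129 with DESeq2, 6 with no filter, 1 with voom, 1 with the block, 0 to 3 with 1 library left out, 0 with log2(FPKM + 1) and no filter, 80 with 2 against 2, 14 after the GC and length correction and 104 with that correction and the block; the cause was not tested. The 3 libraries a group, their unequal depth and the spread of the KO libraries limit what the intervals can separate, and p-values measure the spread between these mice only.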
